A study of Mus musculus with 30 samples.

Results

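The 33 imprinted genes described here were picked by name from a list of mouse genes known to be imprinted, and all 33 were found among the 48820 genes of the deposited expression table. The choice was made with earlier results of these data known. The members lie in 17 imprinted loci, 6 of which hold more than 1 of them, and 11 of the genes stand alone in their locus. By textbook knowledge 12 are assigned to the maternal chromosome and 21 to the paternal chromosome. Gnas is counted among the 12, though it is expressed from both chromosomes in most tissues. Of the 33, 26 are annotated as protein coding and 7 as other kinds of RNA.

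The measurements came from hearts of wild-type (WT), untreated mice at 10 ages, with 3 libraries per age. Before birth these were embryonic days (E) 10.5, 12.5, 14.5, 16.5 and 18.5, and after it postnatal day 1 (P1) and weeks (W) 1, 2, 4 and 8. Poly(A) RNA was sequenced to between 23164941 and 50519457 counts a library. Strain and sex are not given in the labels, nor whether replicates are different hearts or pools, so p-values measure the spread between these libraries, which may be technical in part.

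Imprinting is the silencing of a gene on the chromosome from 1 parent. For most imprinted genes it is set by DNA methylation laid down in the egg or the sperm and kept through the divisions of the embryo. Imprinted genes sit in clusters that share a control region, often with a long noncoding RNA that silences its neighbours on the same chromosome. As a class they are known for their part in growth before birth and in the placenta. The counts used here sum both parental chromosomes, so the state of the imprint itself was not measured.

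The unit of a level is CPM, the count after scaling every library to the same size with factors from the trimmed mean of M values (TMM), which set most genes as unchanged between libraries. Changes are log2 changes ± their standard error (SE) from edgeR's quasi-likelihood test, a gene is said to have risen or fallen where the p-value adjusted over all 19280 genes tested was under 0.05, and errors of levels are SDs over the 3 libraries. All 33 genes passed the filter on low counts. In whole hearts, fewer cells of a type and less RNA per cell cannot be told apart.

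E10.5 replicate 2 stood apart from its group. The chi-square of its counts against those of replicates 1 and 3 was 195.8 and 229.0 per degree of freedom, while replicates 1 and 3 differed by 17.8 and pairs at the other ages by 7.35 to 65.1. For Mest it held 1658 CPM, against 2387 and 2900 in the other 2 libraries, and for Peg3 556 CPM, against 806 and 734. Counts of members called against E10.5 are therefore also given without it. Defining cardiomyocyte markers were high at every age: the summed level of 6 of them (Tnnt2, Tnni3, Myh6, Actn2, Ttn and Ryr2) ran from 15970 to 35810 CPM at E10.5, from 85650 to 102100 CPM at P1 and from 195600 to 215300 CPM at 8W. All 4 placenta markers (Prl3d1, Tpbpa, Psg17 and Gcm1) were at or near 0, with a summed level of at most 0.129 CPM at E10.5 and of 0 at 8W.

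Some members carry a second gene product inside them, and the sequences of these show which RNAs are read from the same stretch. The exon of H19 holds the hairpin of miR-675, and the hairpin of miR-335 lies in Mest. Rtl1 overlaps 7 annotated microRNA hairpins, 6 of them on the opposite strand, so that the mature forms of these 6 are complements of the Rtl1 strand. The mature sequences from RefSeq (build GRCm38.p6) are shown 5′ to 3′ with the seed, bases 2 to 8, in capitals, for the H19 and Mest hairpins and for 5 of the hairpins opposite Rtl1.
miR-675-5p (H19, chr7:142577112-142577133, minus strand): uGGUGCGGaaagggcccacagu
miR-675-3p (H19, chr7:142577078-142577099, minus strand): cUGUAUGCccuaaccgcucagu
miR-335-5p (Mest, chr6:30741314-30741336, plus strand): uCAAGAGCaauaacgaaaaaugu
miR-335-3p (Mest, chr6:30741354-30741375, plus strand): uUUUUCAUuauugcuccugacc
miR-431-5p (opposite Rtl1, chr12:109590459-109590479, plus strand): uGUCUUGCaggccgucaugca
miR-433-3p (opposite Rtl1, chr12:109591781-109591802, plus strand): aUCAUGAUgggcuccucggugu
miR-127-3p (opposite Rtl1, chr12:109592888-109592909, plus strand): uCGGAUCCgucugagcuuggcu
miR-434-3p (opposite Rtl1, chr12:109594565-109594586, plus strand): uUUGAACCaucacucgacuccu
miR-136-5p (opposite Rtl1, chr12:109595331-109595352, plus strand): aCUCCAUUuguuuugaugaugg
Among the 14 mature forms of these 7 hairpins, 14 different seeds were found, so none share a seed. The libraries hold long poly(A) RNA and say nothing of the mature microRNAs. Along the maternal RNAs of the Dlk1-Meg3 locus, the same RefSeq table places 1 further hairpin in Meg3, 3 in Rian and 14 in Mirg, all on the strand of their host, and GENCODE M21 places another, Mir1906-1, in Meg3.

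Across the 10 ages all 33 members changed, where 93.6% of all genes tested did, so that the share alone does not set them apart. Their summed level was 13530 ± 1421 CPM at E10.5 (SD, n = 3), 15490 ± 147 CPM at E12.5, 8618 ± 246 CPM at E18.5, 6858 ± 141 CPM at P1 and 1642 ± 32.5 CPM at 8W. H19 alone made up 42.1% ± 2.48 of that sum at E10.5, 55.6% ± 0.495 at E12.5, 43.7% ± 1.53 at P1 and 2.92% ± 0.366 at 8W. Without H19 the sum still fell at every step of age, from 7861 ± 1142 CPM at E10.5 to 3861 ± 34.3 CPM at P1 and 1594 ± 29.7 CPM at 8W. The highest mean level lay at E10.5 for 18 members, at E12.5 for 5, at E14.5, E16.5, E18.5 and 8W for 2 each, and at P1 and 4W for 1 each.

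**Figure D1:**
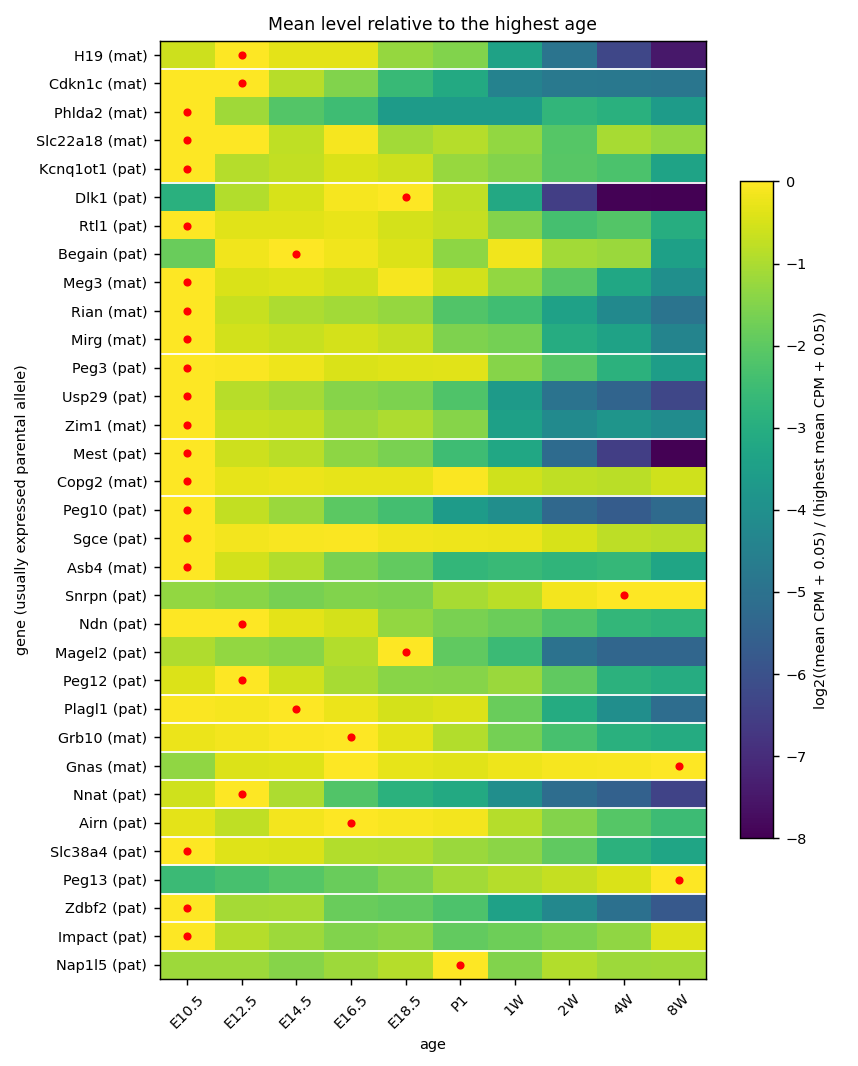
Mean level of each of the 33 imprinted genes (rows, ordered by locus) at the 10 ages (columns). Levels are log2 of the ratio to the gene's highest mean CPM after adding 0.05 CPM. The labels mat and pat give the parental copy to which a gene is assigned. Red points mark the age of the highest mean with TMM scaling: 18 of the 33 lie at E10.5, and those of Snrpn (4W), Gnas and Peg13 (8W) lie after P1.

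From E10.5 to E18.5, 5 members rose (Dlk1, Begain, Gnas, Magel2 and Peg13) and 23 fell, against 32.9% of all genes tested higher and 30.4% lower. The median change was -0.65 for the members and -0.0013 over all genes. Without E10.5 replicate 2, 6 members rose and 22 fell: Airn then passed (0.31, adjusted p = 0.037) and Slc22a18 no longer did (-0.86, adjusted p = 0.21). Calls of the other members were the same, and values moved for Mest, from -1.62 to -1.80, and for Cdkn1c, from -2.59 to -2.76. Begain, at low counts, moved from 1.55 to 1.15 (adjusted p = 0.023) and Peg3 from -0.39 to -0.53 (adjusted p = 0.00018). From E18.5 to P1, 4 rose (Copg2, Snrpn, Peg13 and Nap1l5) and 16 fell, with 19.8% of all genes higher and 19% lower, and the medians were -0.31 for the members and -0.0051 over all genes. From P1 to 8W, 4 rose (Snrpn, Gnas, Peg13 and Impact), 27 fell, 24 of them by more than 2-fold, and Phlda2 and Slc22a18 did not pass, with 31.8% of all genes higher and 35.1% lower, or 66.8% changed. The medians were -2.16 for the members, also with the genes at 0 set to their bound, and -0.10 over all genes. Leaving out any 1 of the 30 libraries gave the same 4 and 27 each time.

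Scaling bears on the span after birth. With library size alone in place of TMM, the median change of all genes from P1 to 8W moved by -0.77, and the calls over all genes moved from 6123 higher and 6763 lower to 2225 higher and 12577 lower. With that scaling 28 members fell and 3 rose, since Gnas reversed, from 0.37 to -0.40 (adjusted p = 4.3e-05). The other 3 stayed higher at 8W, with Snrpn at 0.25 (adjusted p = 0.031), Peg13 at 0.35 (adjusted p = 0.00013) and Impact at 0.77 (adjusted p = 1.9e-08). The shift was smaller over gestation (-0.16) and over birth (-0.11).

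**Figure D2:**
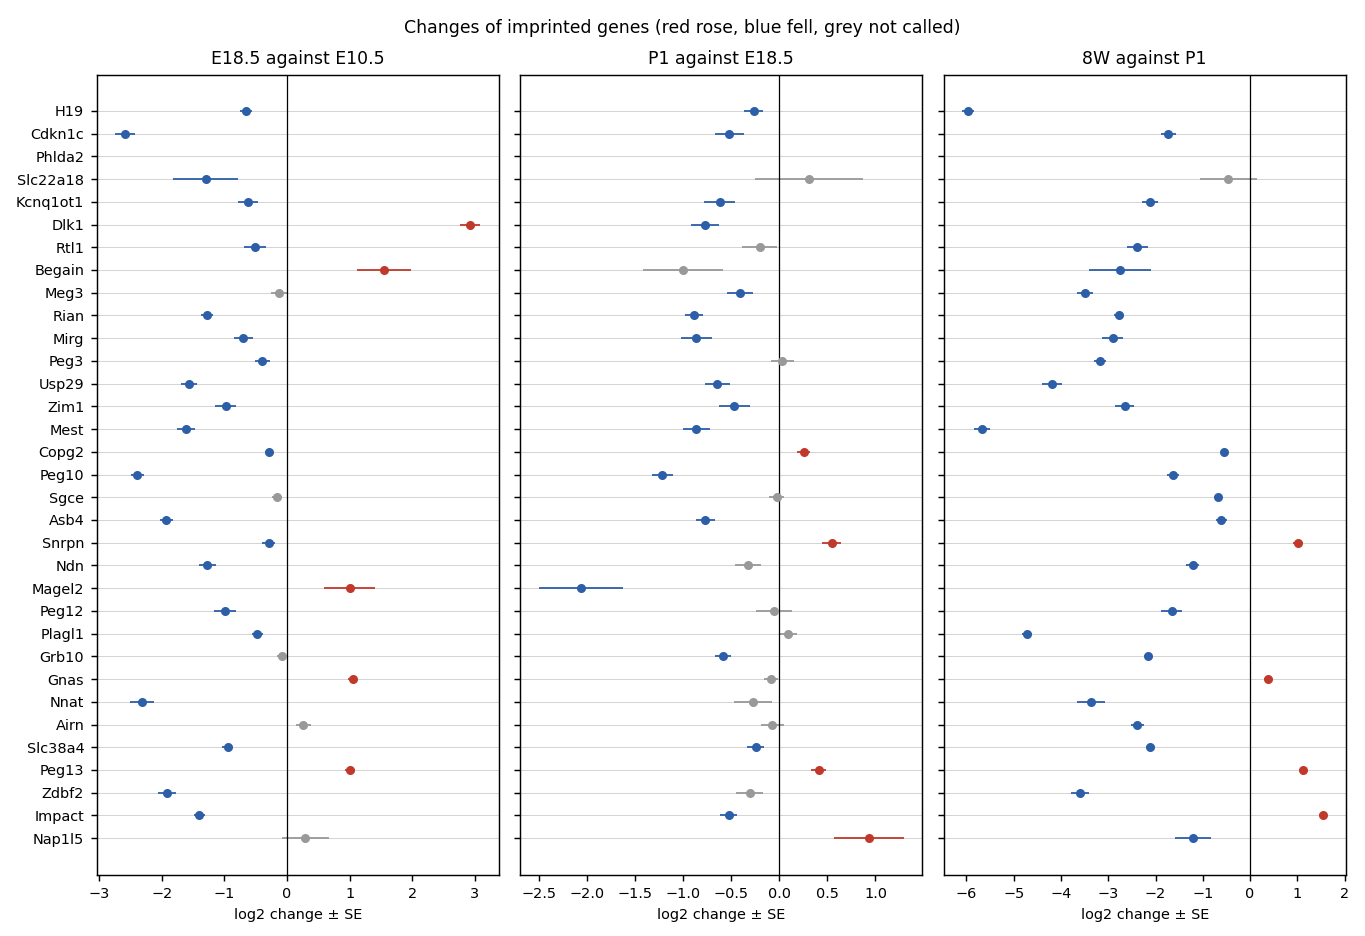
Log2 change ± SE (horizontal axis) of each imprinted gene (rows) from E10.5 to E18.5, from E18.5 to P1 and from P1 to 8W, with genes that rose in red, genes that fell in blue and genes that did not pass in grey. Phlda2 in all panels and Magel2 and Dlk1 in the last are left out because a group held at most 3 counts; after birth most points lie left of 0, down to H19 at -5.97.

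Step by step, members fell more often than they rose at each of the 9 steps between neighbouring ages. From E10.5 to E12.5, 7 rose and 14 fell (31% and 24.4% of all genes tested, or 55.4% changed). Without E10.5 replicate 2 these were 20 members, as Peg12 lost its rise (0.37, adjusted p = 0.096). From E12.5 to E14.5, 2 rose and 8 fell (10.5% and 7.8%), and without E14.5 replicate 2 only 6 were called in either direction. From E14.5 to E16.5, 3 rose and 11 fell (14.1% and 12%), and from E16.5 to E18.5, 2 rose and 9 fell (13% and 11.2%). After birth the first week brought 2 rises and 18 falls (18.8% and 17%), and the second week 1 rise, of Snrpn, and 23 falls (15.5% and 14.1%, or 29.6% changed). From 2W to 4W, 2 rose and 15 fell (15.8% and 13%), and from 4W to 8W, 4 rose and 15 fell (11.8% and 12.1%). With library size alone, of the rises after P1 those of Peg13 to 1W (0.12, adjusted p = 0.22), of Peg13 and Impact to 4W (0.015 and 0.027, adjusted p = 0.9 and 0.87) and of Copg2 (0.096, adjusted p = 0.41) and Peg10 to 8W were lost. Airn, H19, Meg3, Mest, Peg3, Plagl1, Rian and Zdbf2 fell at all 4 steps after P1. The share of all genes that did so was not counted, so this does not set the members apart.

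**Figure D3:**
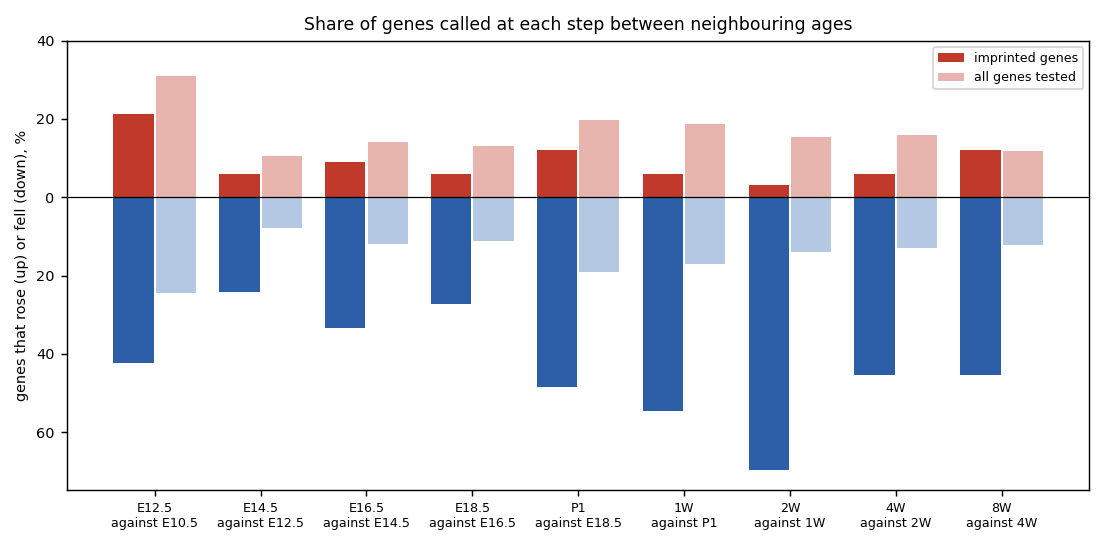
Percent of genes that rose (upward bars) or fell (downward bars) at each step between neighbouring ages, for the 33 imprinted genes (dark) and all 19280 genes tested (pale). The downward dark bar is longer than the pale bar at every step and longest from 1W to 2W, where 23 of 33 members fell against 14.1% of all genes.

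Markers of cell types changed over the same ages. The summed level of 6 fibroblast markers ran from between 271.2 and 318.1 CPM at E10.5 to between 2635 and 3784 CPM at P1 and between 1674 and 1766 CPM at 8W. Of these 6, 5 rose over gestation, and 2 rose and 3 fell from P1 to 8W. All 5 endothelial markers rose over gestation, and 4 fell and 1 rose from P1 to 8W. Their sums lay between 528.8 and 684.2 CPM at E10.5, 1150 and 1242 CPM at P1 and 1113 and 1145 CPM at 8W. The sum of 5 epicardial markers was between 99.9 and 139 CPM at P1 and between 36.3 and 44.8 CPM at 8W, and all 5 fell. Of 5 neuronal markers, none was at 0 at P1 or 8W, 3 fell, and the sum went from between 7.997 and 8.88 CPM to between 4.31 and 6.94 CPM. Of 5 erythroid markers 4 fell, with sums between 1652 and 3343 CPM at P1 and between 990.2 and 1283 CPM at 8W. Erythroid sums swung between other ages: 6876 to 8739 CPM at E12.5, 8329 to 14540 CPM at E16.5, 1021 to 2948 CPM at E18.5 and 1724 to 5074 CPM at 4W. Sums of some other lists were higher between P1 and 8W than at either: fibroblast, 4443 to 4738 CPM at 1W, and endothelial, 1697 to 1806 CPM at 2W. So was that of neural crest and Schwann cell markers, at 10.38 to 12.09 CPM at 4W. It lay between 4.689 and 10.21 CPM at P1 and between 7.897 and 8.974 CPM at 8W. Of 4 adipocyte markers 3 rose over birth, from a sum of at most 0.573 CPM at E18.5 to between 3.72 and 5.56 CPM at P1, and 1 rose to 8W. Of 4 liver markers tested 3 rose over gestation and 2 fell from P1 to 8W, and 1 library at P1 held a sum of 41.9 CPM. Of 5 neural crest and Schwann cell markers 4 rose over gestation, and of 2 skeletal muscle markers tested 1 fell there. All 6 cardiomyocyte markers rose over gestation and from P1 to 8W. The part of these shifts in the changes of the imprinted genes was not tested.

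The maternally expressed H19 (chr7:142575529-142578143, minus strand), a long noncoding RNA known to restrain growth, reached the highest level of all members per kilobase of exon. Before birth H19 measured, in CPM, 5731, 5362 and 5911 at E10.5, 8578, 8790 and 8481 at E12.5, 6516, 7117 and 6859 at E14.5, 7280, 6795 and 6635 at E16.5, and 3791, 3604 and 3403 at E18.5. After birth it measured, in CPM, 2821, 3147 and 3023 at P1, 780, 815 and 868 at 1W, 315, 229 and 306 at 2W, 108, 103 and 116 at 4W, and 45.5, 42.9 and 55.3 at 8W. The libraries at E12.5 lay above all others, and those of each age after birth lay below all of the age before. H19 rose from E10.5 to E12.5 (log2 change 0.60 ± 0.099, adjusted p = 4.5e-06), fell over birth (log2 change -0.26 ± 0.099, adjusted p = 0.033) and fell from P1 to 8W (log2 change -5.97 ± 0.12, adjusted p = 3.1e-27), to 0.556% of its level at E12.5. The call over birth was lost without E18.5 replicate 1, E18.5 replicate 2 or P1 replicate 1, at adjusted p = 0.12, 0.073 and 0.13. Per kilobase of exon H19 was the highest of the 33 from E10.5 to 2W, with 3503 CPM per kb at E12.5. Gnas was the highest at 4W and 8W, when H19 stood at 44.3 and 19.5 CPM per kb. The length is that of all annotated exons of a gene together, 11186 bases for Gnas and 2460 for H19. The age at which the order changed depends on that choice.

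In the neighbouring Kcnq1ot1 domain the noncoding RNA Kcnq1ot1 (chr7:143203458-143296549, minus strand) silences the protein-coding genes around it on the paternal chromosome. Before birth Kcnq1ot1 measured, in CPM, 585, 440 and 550 at E10.5, 311, 268 and 270 at E12.5, 357, 298 and 295 at E14.5, 404, 351 and 383 at E16.5, and 301, 334 and 387 at E18.5. After birth it measured, in CPM, 237, 170 and 257 at P1, 207, 177 and 184 at 1W, 119, 86.8 and 165 at 2W, 112, 105 and 108 at 4W, and 47.6, 54.2 and 51.3 at 8W. Its level fell from E10.5 to E12.5, no step from there to E18.5 was called, and it fell over birth and later, with non-overlapping libraries at P1 and 8W (-2.12 ± 0.17, adjusted p = 7.4e-11). Cdkn1c (chr7:143458339-143461050, minus strand), an inhibitor of cyclin-dependent kinases that slows the cell cycle, measured, in CPM, 539, 387 and 651 at E10.5, 576, 532 and 492 at E12.5, 301, 307 and 266 at E14.5, 178, 182 and 195 at E16.5, and 91.6, 86.8 and 83.9 at E18.5. After birth Cdkn1c measured, in CPM, 67.4, 57.3 and 58.5 at P1, 23.3, 24.9 and 24.3 at 1W, 21.4, 13.7 and 23.9 at 2W, 16.2, 21.9 and 19.3 at 4W, and 19.3, 18.1 and 17.9 at 8W. It fell at each step from E12.5 to 1W: over gestation (-2.59 ± 0.16, adjusted p = 7.1e-14), over birth (-0.52 ± 0.15, adjusted p = 0.0071) and into the first week (-1.34 ± 0.15, adjusted p = 1.6e-07), while no later step was called except, with library size alone, that from 1W to 2W (-0.59, adjusted p = 0.0078). An antisense gene shares 625 bases, 30.7%, of its exons, and without the strand setting the counts of the pair cannot be told apart.

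The proportion of the pair changed with age. Kcnq1ot1 took 34.7% ± 0.999 of the summed CPM of Kcnq1ot1 and Cdkn1c at E12.5, 88.6% ± 1.11 at 1W and 73.4% ± 1.98 at 8W. These shares are not scaled by length, and Kcnq1ot1 has 93092 exon bases against 2039 for Cdkn1c. Per kilobase of exon Cdkn1c was the higher, with 261.5 against 3.04 CPM per kb at E12.5 and 9.04 against 0.548 at 8W. The log2 ratio, with 0.5 CPM added to each, ran over 3.85 between its lowest and highest age. The other members of the domain were near the limit of detection. Phlda2, which restrains growth of the placenta, had 61 counts over the 3 libraries at E10.5, 0 counts in all libraries at E18.5, P1, 1W and 8W, and 3 counts each at 2W and 4W. Against a floor of 3 counts over the group, Phlda2 was at least 20.7-fold lower at E18.5 than at E10.5. Slc22a18, a membrane transporter, stayed between 0 and 0.922 CPM in every library. Its fall over gestation (-1.30 ± 0.52, adjusted p = 0.031) was lost without E10.5 replicate 2, E18.5 replicate 2 or E18.5 replicate 3 (-0.86, -0.98 and -1.25, adjusted p = 0.21, 0.16 and 0.081), and with no filter or in a fit of the 6 libraries compared (adjusted p = 0.056 and 0.06).

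In the Dlk1-Meg3 locus on chromosome 12 the paternal copy expresses the protein-coding genes and the maternal copy a chain of noncoding RNAs. Dlk1 (chr12:109452823-109463336, plus strand), a transmembrane relative of the Notch ligands that holds back the differentiation of precursor cells, measured, in CPM, 5.75, 3.96 and 5.87 at E10.5, 19.5, 22.3 and 20.1 at E12.5, 29, 32.8 and 23.5 at E14.5, 34.6, 40 and 36.3 at E16.5, and 39, 41.4 and 38.2 at E18.5. After birth Dlk1 measured, in CPM, 21.9, 29 and 18.5 at P1, 3.92, 4.78 and 4.3 at 1W, 0.358, 0.337 and 0.449 at 2W, 0.18, 0.0291 and 0.116 at 4W, and 0.0463, 0 and 0.0798 at 8W. It rose over gestation (2.93 ± 0.16, adjusted p = 9.7e-17), in contrast to most members, and its libraries at E12.5 lay above all those at E10.5. From E18.5 it fell at birth (-0.77 ± 0.14, adjusted p = 6.4e-05), again to 1W (-2.42 ± 0.16, adjusted p = 3.9e-13) and to 2W (-3.50 ± 0.27, adjusted p = 1e-11). At 8W 3 counts were left over 3 libraries against 2091 at P1, a ratio of 562 with an exact 95% counting interval of 192 to 2726, which covers counting error only. Begain, named for its tie to a neuronal scaffold, was at or below 1.38 CPM in every library. It rose over gestation (1.55 ± 0.43, adjusted p = 0.0022) and again from P1 to 1W (1.29 ± 0.41, adjusted p = 0.014), and held 4 counts at 8W. Over birth it did not pass (adjusted p = 0.056) but did without E10.5 replicate 2, E12.5 replicate 1, E18.5 replicate 1, 8W replicate 1 or 8W replicate 2 (adjusted p between 0.036 and 0.048). It also passed with library size alone (-1.12, adjusted p = 0.035), with the stricter filter or DESeq2 (adjusted p = 0.043 and 0.045) and in a fit of the 6 libraries compared (adjusted p = 0.036).

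Rtl1, a gene derived from a retrotransposon and needed in the placenta, was at 6.36 ± 0.53 CPM at E10.5, 3.86 ± 0.596 CPM at P1 and 0.735 ± 0.0522 CPM at 8W. It fell from P1 to 8W (-2.38 ± 0.23, adjusted p = 6.9e-11) and over gestation (-0.51 ± 0.18, adjusted p = 0.012), the latter a call lost without E18.5 replicate 2 (adjusted p = 0.071). Since the microRNA precursors run through Rtl1 on the other strand, counts made without regard to strand would hold both RNAs. The noncoding RNA Rian (chr12:109603940-109661716, plus strand) carries small nucleolar RNAs. It measured, in CPM, 170, 192 and 171 at E10.5, 117, 108 and 111 at E12.5, 96.5, 79.3 and 93.3 at E14.5, 75.9, 85.3 and 88.1 at E16.5, and 74.1, 74.3 and 71.7 at E18.5. After birth Rian measured, in CPM, 36.2, 42.5 and 40.1 at P1, 33.3, 31.5 and 31.8 at 1W, 14.6, 15.3 and 19.4 at 2W, 9.75, 9.91 and 9.14 at 4W, and 6.29, 4.76 and 6.38 at 8W. Each embryonic library lay above each library after birth, and the fall from P1 to 8W was -2.77 ± 0.11 (adjusted p = 2.1e-20).

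Meg3 (chr12:109541001-109571726, plus strand), the first RNA of that chain and a noncoding RNA known as a growth suppressor, measured, in CPM, 54.1, 39.7 and 48.3 at E10.5, 34.8, 32.8 and 35.1 at E12.5, 38.9, 31.3 and 38.3 at E14.5, 30.2, 31.8 and 36 at E16.5, and 37.4, 44.5 and 48.3 at E18.5. After birth Meg3 measured, in CPM, 36.4, 30.4 and 31.1 at P1, 20.1, 16.7 and 20.9 at 1W, 12.2, 8.34 and 13.2 at 2W, 5.02, 4.8 and 5.19 at 4W, and 2.31, 2.65 and 3.71 at 8W. From E10.5 to E18.5 its groups overlapped and no change was called (-0.12 ± 0.13, adjusted p = 0.43). Over birth it fell (log2 change -0.41 ± 0.13, adjusted p = 0.016), a call lost without E18.5 replicate 3 or P1 replicate 2 (adjusted p = 0.092 and 0.069). Its fall to 8W was -3.49 ± 0.17 (adjusted p = 3e-17). Mirg (chr12:109729764-109749460, plus strand), the host of the largest number of hairpins here, measured, in CPM, 13.7, 19 and 14.6 at E10.5, 9.96, 10.9 and 11.4 at E12.5, 11.1, 10.2 and 8.54 at E14.5, 10.6, 11.4 and 11.2 at E16.5, and 9.83, 9.49 and 9.85 at E18.5. After birth Mirg measured, in CPM, 5.04, 5.4 and 5.59 at P1, 5.08, 5.03 and 4.77 at 1W, 1.31, 1.35 and 2.96 at 2W, 1.52, 1.54 and 1.36 at 4W, and 0.786, 0.794 and 0.558 at 8W. It fell in the second week, with 2W replicate 3 at 2.96 CPM above 1.31 and 1.35 CPM in the others, and from P1 to 8W (log2 change -2.90 ± 0.22, adjusted p = 4.5e-13).

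The RNAs of that chain did not keep a fixed proportion. By the mean CPM of an age with nothing added, the log2 ratio of Rian to Meg3 was 1.91 at E10.5, 0.28 at P1 and 1.01 at 8W. That of Mirg to Meg3 lay between -2.61 at P1 and -1.56 at E16.5. Meg3 against Dlk1, the maternal against the paternal product, went from 3.19 at E10.5 to -0.18 at E16.5, 4.88 at 2W and 6.10 at 8W, the last on the 3 counts of Dlk1. For a test over the 30 libraries 0.5 CPM was added to each gene, and 16 ratios of neighbours were compared across ages by permutation. In 9 of the 16 both genes had a mean of at least 0.5 CPM at every age, and these 9 differed across ages, with 100000 resamples and adjusted p between 1.1e-05 and 0.0012 over the 16. The lowest raw p, 1e-05, is the smallest that these resamples can give. Since 93.6% of all genes tested changed across the ages, ratios of other gene pairs may differ as often. Such pairs were not tested, so the calls do not set these neighbours apart. In the other 7, those of Phlda2, Slc22a18, Magel2, Begain and Rtl1, of Meg3 to Dlk1 and of Usp29 to Peg3, a gene fell under the added value at 1 or more ages, and nothing is read from the test there.

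**Figure D4:**
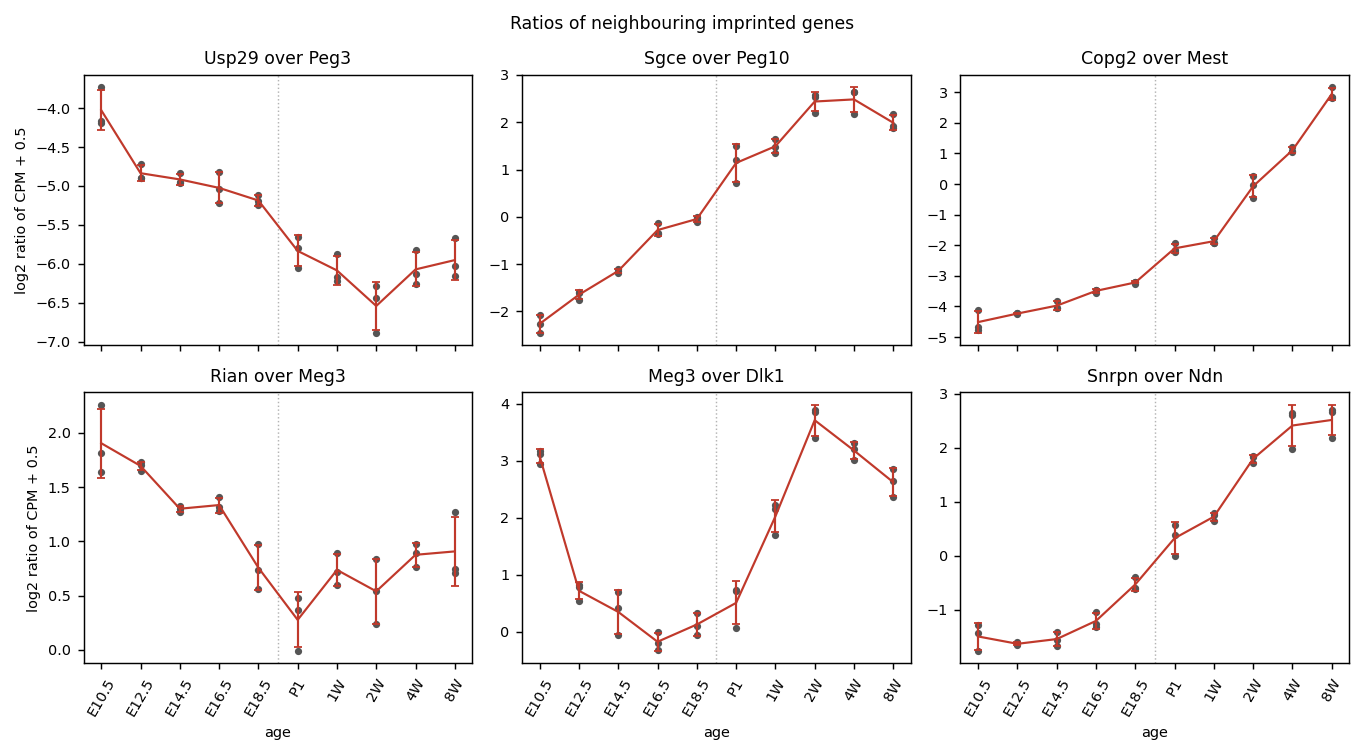
Log2 ratio of the CPM of 6 pairs of neighbouring imprinted genes, after adding 0.5 CPM to each, at the 10 ages, with points for single libraries and red lines and bars for the mean ± SD of 3 libraries. The dotted line marks birth, and Copg2 over Mest climbs from -4.51 to 2.94 while Meg3 over Dlk1 dips to -0.18 at E16.5. The added 0.5 CPM sets the height of Meg3 over Dlk1 from 2W on and of Usp29 over Peg3 at 8W, where Dlk1 and Usp29 lie under it.

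In the Peg3 locus, Peg3 and Usp29 start 147 bases apart and run in opposite directions. Their RefSeq windows, each from 250 bases before to 50 bases after a start, share 263 bases, so the window of Peg3 shows the stretch from which both genes are read. It is given 5′ to 3′ on the strand of Peg3 (GRCm38.p6, chr7:6730370-6730669, minus strand). The capitals mark GGGGCCCC, the sequence that the Plagl1 protein is known to bind, which reads the same on both strands.
Peg3 promoter window: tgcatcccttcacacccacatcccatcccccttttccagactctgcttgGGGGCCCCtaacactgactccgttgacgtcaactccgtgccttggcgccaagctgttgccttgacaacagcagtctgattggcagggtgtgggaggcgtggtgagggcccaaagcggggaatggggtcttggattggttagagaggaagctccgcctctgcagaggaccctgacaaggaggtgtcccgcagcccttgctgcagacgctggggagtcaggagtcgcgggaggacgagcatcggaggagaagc
The motif was in 1.08% of the 32851 windows, or in a window of 1.25% of the 27025 genes with one, and in those of 3 of the 26 members with a window: Peg3, Usp29 and Begain. The match of Peg3 and that of Usp29 are 1 site in the bases their windows share. For H19, Cdkn1c, Rtl1, Peg10, Sgce, Peg13 and Impact no window was analysed here. A match is a run of letters and not a shown binding site. The members' windows held a median of 13 CG pairs, between 0 and 46, where the median over all genes with a window was 8, taking the highest window of each gene.

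Peg3 (chr7:6703892-6730431, minus strand), a zinc finger protein of cell death and growth pathways, measured, in CPM, 806, 556 and 734 at E10.5, 617, 695 and 724 at E12.5, 597, 645 and 582 at E14.5, 506, 501 and 518 at E16.5, and 530, 531 and 535 at E18.5. After birth Peg3 measured, in CPM, 596, 562 and 476 at P1, 265, 245 and 263 at 1W, 172, 128 and 200 at 2W, 87.5, 104 and 97.3 at 4W, and 56.3, 65.1 and 59.4 at 8W. It fell little over gestation (-0.39 ± 0.12, adjusted p = 0.0048), and that call was lost without E10.5 replicate 1 (adjusted p = 0.059). It did not pass over birth (0.033 ± 0.12, adjusted p = 0.86). Its fall from P1 to 8W was -3.17 ± 0.13 (adjusted p = 9.5e-20), with non-overlapping libraries at each step after P1. Usp29 (chr7:6730578-6967219, plus strand), a ubiquitin-specific protease, measured, in CPM, 43.7, 41.5 and 40.5 at E10.5, 23, 22.9 and 23.8 at E12.5, 18.8, 20.1 and 20 at E14.5, 13.1, 14.8 and 17.9 at E16.5, and 13.4, 14 and 15 at E18.5. After birth Usp29 measured, in CPM, 10.2, 7.99 and 8.96 at P1, 3.06, 2.92 and 4.01 at 1W, 0.954, 1.14 and 1.79 at 2W, 1.05, 0.872 and 0.891 at 4W, and 0.37, 0.416 and 0.678 at 8W.

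The pair changed by different amounts. Usp29 fell over gestation (log2 change -1.57 ± 0.13, adjusted p = 1.6e-12) and over birth (log2 change -0.64 ± 0.13, adjusted p = 0.0002), and from P1 to 8W its log2 change was -4.19 ± 0.20 (adjusted p = 3.8e-18). The log2 ratio of the mean CPM of Usp29 to that of Peg3, with nothing added, was -4.06 at E10.5, -5.91 at P1 and -6.95 at 8W. An antisense gene, Zim3, shares 2582 bases of the Usp29 exons. Zim1 (chr7:6671269-6696450, minus strand), the maternally expressed zinc finger gene of the locus, measured, in CPM, 135, 80.4 and 98.4 at E10.5, 60, 66.9 and 68.2 at E12.5, 60.6, 61.5 and 67.2 at E14.5, 46.2, 46 and 47.5 at E16.5, and 49.5, 55.1 and 54.1 at E18.5. After birth Zim1 measured, in CPM, 43.9, 43.4 and 27.7 at P1, 11.5, 7.72 and 9.4 at 1W, 4.85, 4.84 and 7.49 at 2W, 7.54, 7.12 and 7.17 at 4W, and 5.78, 6.05 and 6.38 at 8W. Its mean was lowest at 2W, and the steps from 2W to 4W (0.35 ± 0.21, adjusted p = 0.22) and from 4W to 8W (-0.26 ± 0.21, adjusted p = 0.39) were not called. Its fall over birth (-0.47 ± 0.16, adjusted p = 0.027) was lost without E18.5 replicate 2, E18.5 replicate 3 or P1 replicate 3 (-0.44, -0.45 and -0.29, adjusted p = 0.077, 0.07 and 0.15), and with no filter or in a fit of the 6 libraries compared (adjusted p = 0.057 and 0.058).

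Mest (chr6:30723547-30748465, plus strand), a paternally expressed enzyme-like protein of mesodermal tissue, had the second highest level per kilobase at E10.5. Before birth Mest measured, in CPM, 2387, 1658 and 2900 at E10.5, 1623, 1491 and 1478 at E12.5, 1346, 1344 and 1252 at E14.5, 911, 914 and 899 at E16.5, and 805, 736 and 726 at E18.5. After birth Mest measured, in CPM, 436, 395 and 416 at P1, 234, 249 and 247 at 1W, 60.8, 78.2 and 49 at 2W, 23.2, 27.5 and 25.8 at 4W, and 8.84, 6.84 and 8.93 at 8W. It fell over gestation (-1.62 ± 0.14, adjusted p = 2.2e-11), over birth (-0.86 ± 0.14, adjusted p = 9.6e-06) and to 8W (-5.67 ± 0.17, adjusted p = 9.2e-22), when 0.354% of the level at E10.5 was left. Copg2 (chr6:30747554-30896794, minus strand), a subunit of the COPI vesicle coat that overlaps Mest on the other strand, measured, in CPM, 93.2, 96 and 106 at E10.5, 84.9, 79.3 and 78.5 at E12.5, 80.6, 80.1 and 88.5 at E14.5, 76.8, 83 and 81.1 at E16.5, and 87.4, 79.6 and 75.7 at E18.5. After birth Copg2 measured, in CPM, 93.8, 103 and 92.7 at P1, 68.5, 65.5 and 65 at 1W, 59.8, 56.9 and 58.8 at 2W, 54.3, 56.9 and 54.7 at 4W, and 66, 65.8 and 65.5 at 8W. It stayed within 1.78-fold between its highest and lowest age, fell over gestation (-0.29 ± 0.068, adjusted p = 0.00045) and rose at birth (0.25 ± 0.068, adjusted p = 0.0032), but not with library size alone (0.14, adjusted p = 0.17). To 8W it fell (log2 change -0.55 ± 0.068, adjusted p = 1.8e-08).

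The 2 genes of the Mest locus share 912 exon bases on opposite strands. Of their summed CPM, Copg2 took 4.26% ± 1.06 at E10.5, 18.9% ± 1.55 at P1 and 88.9% ± 1.44 at 8W, with 48.8% ± 6.25 at 2W. The log2 ratio moved over 7.45. Without the strand setting, reads from the shared bases cannot be assigned to either gene.

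In the Peg10 locus another pair is read in opposite directions from neighbouring starts. Peg10, a gene derived from a retrotransposon and needed in the placenta, and Sgce, the epsilon subunit of the sarcoglycan complex of muscle membranes, start 99 bases apart and are both paternally expressed. Peg10 (chr6:4747306-4760517, plus strand) measured, in CPM, 216, 195 and 196 at E10.5, 111, 117 and 133 at E12.5, 92, 86.8 and 87 at E14.5, 44.6, 52.3 and 52 at E16.5, and 40.3, 35.4 and 40.4 at E18.5. After birth Peg10 measured, in CPM, 15, 13.9 and 20.9 at P1, 11.2, 12.4 and 13.2 at 1W, 4.89, 5.47 and 5.03 at 2W, 4.66, 3.66 and 3.56 at 4W, and 5.6, 5.48 and 5.07 at 8W. It fell over gestation (log2 change -2.39 ± 0.11, adjusted p = 3.1e-19), over birth (log2 change -1.22 ± 0.11, adjusted p = 1.5e-10) and to 8W (log2 change -1.63 ± 0.13, adjusted p = 4.1e-13), with a rise from 4W to 8W (0.44 ± 0.14, adjusted p = 0.022) that was lost with library size alone (0.29, adjusted p = 0.17). Sgce (chr6:4674350-4747207, minus strand) was at 41.8 ± 3.92 CPM at E10.5, 37.4 ± 2.22 CPM at E18.5, 36.7 ± 3.09 CPM at P1 and 22.9 ± 1.55 CPM at 8W. Its change over gestation did not pass (-0.16 ± 0.079, adjusted p = 0.07) but did with library size alone (-0.32, adjusted p = 0.0015), and with RLE or upper quartile factors (-0.19 and -0.23, adjusted p = 0.032 and 0.01). It also passed with the stricter filter or DESeq2 (adjusted p = 0.027 and 0.024) and without E10.5 replicate 1 (-0.21, adjusted p = 0.034) or 2W replicate 2 (adjusted p = 0.05). Its fall after birth was -0.68 ± 0.082 (adjusted p = 8.8e-09).

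Sgce took 17.2% ± 1.92 of the summed CPM of that pair at E10.5, 68.9% ± 6.12 at P1 and 86% ± 2.52 at 4W, and the log2 ratio moved over 4.75. Asb4 (chr6:5383386-5433022, plus strand), the maternally expressed adaptor of a ubiquitin ligase in the same locus, measured, in CPM, 72.1, 64.9 and 66.9 at E10.5, 45.6, 44 and 49.1 at E12.5, 34.5, 36.7 and 36.7 at E14.5, 18.9, 21.6 and 25.7 at E16.5, and 18.9, 16.9 and 17.9 at E18.5. After birth Asb4 measured, in CPM, 10.8, 9.63 and 11.1 at P1, 11.1, 11 and 12.2 at 1W, 10.4, 10.6 and 8.57 at 2W, 10.2, 11 and 10.4 at 4W, and 7.17, 6.31 and 7.26 at 8W. Most of its fall came before and at birth (-1.92 ± 0.096, adjusted p = 6.7e-18, and -0.77 ± 0.099, adjusted p = 2.2e-07). No step between P1 and 4W was called, except with library size alone from 1W to 2W (-0.50, adjusted p = 0.00049), where the libraries of 1W lay above those of 2W, and the change from P1 to 8W was -0.60 ± 0.11 (adjusted p = 1e-05).

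The Snrpn locus, whose human counterpart is lost or silent in Prader-Willi syndrome, held members that went in opposite directions. Snrpn (chr7:59982495-60140219, minus strand), which encodes a protein of the spliceosome's small nuclear ribonucleoproteins, measured, in CPM, 23.3, 25.7 and 27.8 at E10.5, 24.4, 24.8 and 22.1 at E12.5, 18.6, 21 and 20.6 at E14.5, 25.2, 21.3 and 20.2 at E16.5, and 22.1, 21.9 and 18.8 at E18.5. After birth Snrpn measured, in CPM, 27.9, 29.1 and 34.6 at P1, 34.2, 36 and 37.1 at 1W, 49.5, 63.3 and 60.5 at 2W, 57.5, 66.1 and 65.7 at 4W, and 62.5, 57.3 and 65.7 at 8W. It fell slightly over gestation (-0.29 ± 0.10, adjusted p = 0.013), a call lost without E10.5 replicate 3 or E18.5 replicate 3 (adjusted p = 0.082 and 0.099). It rose over birth (0.55 ± 0.10, adjusted p = 6e-05) and by 8W (1.02 ± 0.10, adjusted p = 1.3e-10), and every library from 2W on lay above every earlier one. Its exons share 589 bases with an overlapping gene and 216 with Snurf on the same strand, so the counts depend on how reads were shared out.

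Ndn (chr7:62346569-62350262, plus strand), which encodes necdin, a growth-restraining protein of the MAGE family, measured, in CPM, 64.1, 88.5 and 68.7 at E10.5, 76.9, 76.6 and 71 at E12.5, 60.2, 62.7 and 55.6 at E14.5, 52.4, 54.1 and 49.2 at E16.5, and 29.2, 33.6 and 28.6 at E18.5. After birth Ndn measured, in CPM, 21.2, 29.1 and 23 at P1, 20.1, 23 and 21.4 at 1W, 14.7, 17.2 and 16.7 at 2W, 14.2, 10.4 and 10.1 at 4W, and 13.3, 8.66 and 9.69 at 8W. It fell over gestation (-1.27 ± 0.13, adjusted p = 1.5e-09) and from P1 to 8W (-1.22 ± 0.14, adjusted p = 2.2e-08), and did not pass over birth (-0.32 ± 0.13, adjusted p = 0.057). That last call was gained with library size alone (-0.44, adjusted p = 0.008), upper quartile factors (adjusted p = 0.05), the stricter filter (adjusted p = 0.045), a replicate block (adjusted p = 0.041), and a fit of the 6 libraries compared (adjusted p = 0.037). It was also gained without any 1 of 7 libraries: E10.5 replicate 1 or 2, P1 replicate 2 (-0.47, adjusted p = 0.011), 4W replicate 1 or 3, and 8W replicate 1 or 2. Of the summed CPM of Snrpn and Ndn, Snrpn took 26% ± 3.21 at E10.5, 55.6% ± 5.12 at P1 and 85.5% ± 2.64 at 8W. Magel2 (chr7:62377010-62381640, plus strand), the second MAGE gene of the locus, measured, in CPM, 1.36, 1.19 and 0.463 at E10.5, 0.685, 0.738 and 0.892 at E12.5, 0.407, 0.959 and 0.75 at E14.5, 1.43, 0.838 and 0.829 at E16.5, and 1.64, 1.95 and 2.37 at E18.5. After birth Magel2 measured, in CPM, 0.264, 0.478 and 0.674 at P1, 0.138, 0.427 and 0.336 at 1W, 0, 0.0421 and 0 at 2W, 0 in all 3 libraries at 4W, and 0 in all 3 libraries at 8W. The libraries at E18.5 were above all others, and Magel2 fell over birth (-2.06 ± 0.44, adjusted p = 0.0004).

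The rise of Magel2 over gestation (1.00 ± 0.40, adjusted p = 0.032) was lost without E10.5 replicate 3, E18.5 replicate 2 or E18.5 replicate 3 (0.65, 1.02 and 0.86, adjusted p = 0.19, 0.06 and 0.11) and with library size alone (0.85, adjusted p = 0.063). At 4W and 8W Magel2 had no count, so that against a floor of 3 counts over the group it was at least 11.6-fold lower at 8W than at P1. Peg12, a relative of the Frat proteins of Wnt signalling, was at 6.46 ± 0.783 CPM at E12.5, 2.3 ± 0.0775 CPM at P1 and 0.735 ± 0.283 CPM at 8W. Peg12 fell over gestation (-0.99 ± 0.18, adjusted p = 1.2e-05) and after birth (-1.66 ± 0.22, adjusted p = 8.6e-08), and its change over birth did not pass (-0.054 ± 0.19, adjusted p = 0.85).

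**Figure D5:**
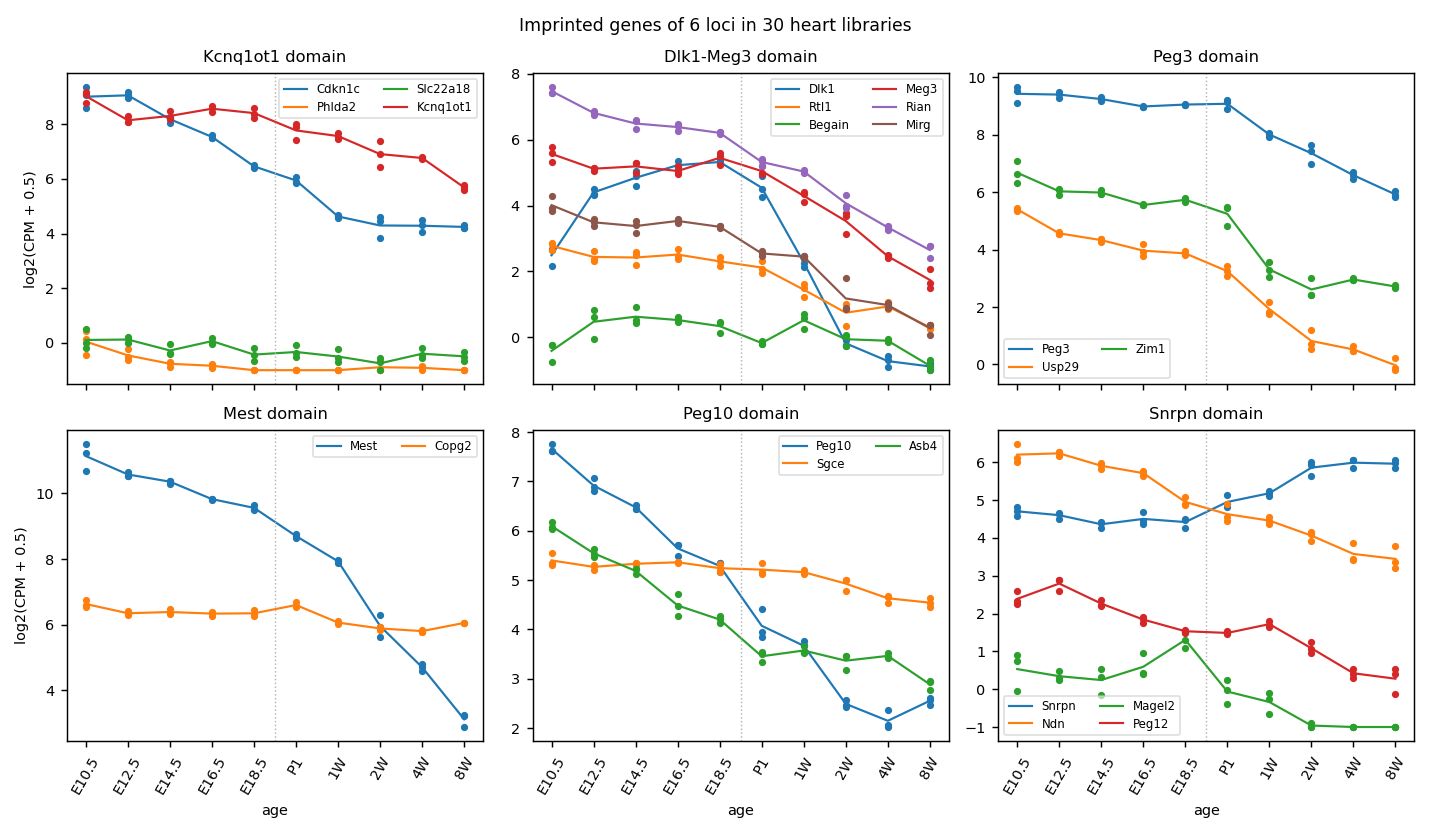
Log2 of CPM plus 0.5 CPM of the members of the 6 loci with more than 1 member at the 10 ages, with a point for each library and a line through the means of 3. The dotted line marks birth; Snrpn climbs after birth from 30.5 to 61.8 CPM while Ndn, Magel2 and Peg12 decline, and Sgce and Copg2 span a smaller range than Peg10 and Mest.

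Of the members alone in their locus, Plagl1 (chr10:13060504-13131694, plus strand) is a zinc finger transcription factor that is known to act on other imprinted genes. Before birth Plagl1 measured, in CPM, 382, 362 and 379 at E10.5, 338, 354 and 365 at E12.5, 380, 380 and 391 at E14.5, 321, 343 and 320 at E16.5, and 257, 281 and 269 at E18.5. After birth Plagl1 measured, in CPM, 277, 302 and 282 at P1, 106, 111 and 105 at 1W, 49.8, 37 and 50.2 at 2W, 22.9, 22.1 and 24.5 at 4W, and 9.11, 11.5 and 12 at 8W. Over birth it did not pass (0.092 ± 0.088, adjusted p = 0.44), and from P1 to 8W it fell (log2 change -4.71 ± 0.11, adjusted p = 2.5e-26), with non-overlapping libraries at all 4 steps. Grb10 (chr11:11930508-12038683, minus strand), an adaptor that restrains insulin and growth factor signals, measured, in CPM, 1799, 1528 and 1810 at E10.5, 1798, 1862 and 1881 at E12.5, 1983, 2020 and 1952 at E14.5, 2035, 2039 and 2020 at E16.5, and 1686, 1567 and 1623 at E18.5. After birth Grb10 measured, in CPM, 1049, 1056 and 1145 at P1, 627, 658 and 614 at 1W, 396, 465 and 365 at 2W, 256, 268 and 275 at 4W, and 238, 247 and 241 at 8W. Its change over gestation was not called (-0.075 ± 0.08, adjusted p = 0.43), except with library size alone (-0.24, adjusted p = 0.024). It fell over birth (-0.59 ± 0.081, adjusted p = 6.4e-07) and to 8W (-2.16 ± 0.084, adjusted p = 1.1e-20).

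Gnas (chr2:174284320-174346744, plus strand), which encodes the stimulatory G protein alpha subunit, is expressed from both chromosomes in most tissues. Before birth Gnas measured, in CPM, 320, 329 and 372 at E10.5, 635, 661 and 644 at E12.5, 617, 678 and 677 at E14.5, 838, 862 and 850 at E16.5, and 721, 705 and 682 at E18.5. After birth Gnas measured, in CPM, 637, 676 and 677 at P1, 716, 786 and 729 at 1W, 793, 845 and 728 at 2W, 809, 812 and 842 at 4W, and 839, 866 and 873 at 8W. All libraries from E12.5 on lay above those of E10.5, and the rise over gestation was 1.05 ± 0.074 (adjusted p = 4.4e-14). From P1 to 8W it rose (log2 change 0.37 ± 0.073, adjusted p = 3.9e-05), the member whose direction reversed with library size alone (-0.40). The count sums the transcripts of the locus, and 988 bases of its exons are shared with the antisense RNA Nespas.

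Nnat (chr2:157560078-157562522, plus strand), neuronatin, a small membrane protein best known from the developing brain, measured, in CPM, 33.1, 34.4 and 29.9 at E10.5, 46.3, 48.7 and 50.5 at E12.5, 24.7, 24.5 and 23.6 at E14.5, 10.2, 11.1 and 10.6 at E16.5, and 6.52, 6.33 and 6.69 at E18.5. After birth Nnat measured, in CPM, 5.04, 6.76 and 4.4 at P1, 3.26, 2.52 and 2.89 at 1W, 1.71, 0.505 and 1.79 at 2W, 0.758, 1.45 and 0.814 at 4W, and 0.648, 0.227 and 0.718 at 8W. The libraries at E12.5 were the highest, and it fell from E10.5 to E18.5 (log2 change -2.32 ± 0.19, adjusted p = 9.5e-12) and from P1 to 8W (log2 change -3.36 ± 0.29, adjusted p = 4.9e-11). Airn (chr17:12741311-12860136, plus strand), the noncoding RNA that silences Igf2r on the paternal chromosome, measured, in CPM, 26.2, 28.5 and 25.3 at E10.5, 21.1, 19.3 and 18.8 at E12.5, 31.9, 29.1 and 29.5 at E14.5, 35.9, 29.5 and 34.7 at E16.5, and 30.6, 28.6 and 36.3 at E18.5. After birth Airn measured, in CPM, 31.8, 30.4 and 28.4 at P1, 18.9, 16.3 and 19.2 at 1W, 13.6, 9.31 and 13 at 2W, 8.27, 8.52 and 6.51 at 4W, and 5.97, 6.62 and 4.75 at 8W. Its change over gestation (0.26 ± 0.12, adjusted p = 0.061) passed without E10.5 replicate 2 (0.31), E18.5 replicate 2 (0.33) or 2W replicate 2 (0.25), at adjusted p = 0.037, 0.031 and 0.037, and with no filter (0.28, adjusted p = 0.035). Airn fell to 8W (log2 change -2.39 ± 0.14, adjusted p = 1.9e-16).

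Slc38a4 (chr15:96994820-97055956, minus strand), an amino acid transporter, measured, in CPM, 236, 218 and 291 at E10.5, 194, 188 and 192 at E12.5, 182, 181 and 179 at E14.5, 127, 139 and 128 at E16.5, and 132, 127 and 127 at E18.5. After birth Slc38a4 measured, in CPM, 109, 104 and 112 at P1, 87.1, 95.1 and 103 at 1W, 68.6, 66.6 and 59 at 2W, 35.9, 33.1 and 33.5 at 4W, and 22.3, 26.7 and 26.3 at 8W. Over gestation it fell (-0.95 ± 0.085, adjusted p = 1.6e-11) and to 8W (-2.11 ± 0.091, adjusted p = 1.7e-19), and its fall over birth (-0.25 ± 0.085, adjusted p = 0.021) was lost without E18.5 replicate 1 or P1 replicate 2 (adjusted p = 0.065 and 0.079). Zdbf2 (chr1:63273265-63314576, plus strand), a zinc finger gene, measured, in CPM, 92.1, 81.4 and 76.5 at E10.5, 38.6, 39 and 39.7 at E12.5, 37.8, 40.1 and 43.9 at E14.5, 21.1, 23.6 and 26 at E16.5, and 21.1, 19.5 and 25.7 at E18.5. After birth Zdbf2 measured, in CPM, 17.5, 18.4 and 17.5 at P1, 7.45, 7.37 and 8.44 at 1W, 3.66, 2.95 and 6.33 at 2W, 1.84, 2.79 and 2.79 at 4W, and 1.53, 1.36 and 1.55 at 8W. Zdbf2 fell over gestation (-1.92 ± 0.14, adjusted p = 3.4e-13) and to 8W (-3.59 ± 0.19, adjusted p = 1.7e-16), and did not pass over birth (-0.31 ± 0.14, adjusted p = 0.084). It passed there with library size alone (-0.42, adjusted p = 0.02), in a fit of the 6 libraries compared (adjusted p = 0.031) and without 2W replicate 2 or 2W replicate 3 (-0.32 each, adjusted p = 0.035 and 0.016).

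Against this decline, Peg13 (chr15:72805600-72810324, minus strand), a noncoding RNA that lies within an intron of another gene, had a higher mean at every age than at the one before. Peg13 is annotated on the strand of that gene, so unspliced RNA of the host could be counted as Peg13. The part of the host in these counts was not tested. Before birth Peg13 measured, in CPM, 11.9, 15.8 and 14.6 at E10.5, 14.8, 17 and 16.6 at E12.5, 19.1, 18.1 and 19.2 at E14.5, 23.2, 22.9 and 23.6 at E16.5, and 30.2, 28.5 and 26.2 at E18.5. After birth Peg13 measured, in CPM, 36.5, 38.8 and 37.5 at P1, 45.5, 42.7 and 43.8 at 1W, 49.7, 50.6 and 51 at 2W, 56.3, 61.3 and 61.3 at 4W, and 79.4, 86.7 and 79.5 at 8W. It rose over gestation (1.00 ± 0.082, adjusted p = 1.5e-12), over birth (0.41 ± 0.079, adjusted p = 9.1e-05) and to 8W (1.12 ± 0.078, adjusted p = 3.5e-14), and its libraries at 8W lay above all others. The single steps from E12.5 to E14.5 and from 1W to 2W were not called. With library size alone those from E14.5 to E16.5, from P1 to 1W and from 2W to 4W were not called either (0.15, 0.12 and 0.015, adjusted p = 0.15, 0.22 and 0.9), and that from 1W to 2W was -0.09 (adjusted p = 0.36). Impact (chr18:12955852-12992950, plus strand), which curbs the stress kinase Gcn2, measured, in CPM, 54.1, 45.9 and 45.8 at E10.5, 25.9, 25.6 and 26.8 at E12.5, 23, 20.7 and 20.8 at E14.5, 16.1, 17.1 and 17.5 at E16.5, and 17.7, 18.5 and 19 at E18.5. After birth Impact measured, in CPM, 11.9, 11.8 and 14.6 at P1, 15.3, 13.9 and 13.6 at 1W, 16.3, 16 and 17 at 2W, 19.5, 20.2 and 18.9 at 4W, and 36.6, 37.8 and 37.6 at 8W.

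Impact had its lowest level at P1. It fell over gestation (-1.40 ± 0.085, adjusted p = 1e-15) and birth (-0.53 ± 0.087, adjusted p = 1.2e-05) and rose to 8W (1.55 ± 0.088, adjusted p = 1.9e-16), with its largest step from 4W to 8W (0.93 ± 0.086, adjusted p = 2.1e-09), where the libraries did not overlap. Nap1l5 (chr6:58905233-58907076, minus strand), a relative of nucleosome assembly proteins, was below 2 CPM throughout. It measured, in CPM, 0.646, 0.952 and 0.414 at E10.5, 0.734, 0.543 and 0.696 at E12.5, 0.694, 0.418 and 0.508 at E14.5, 0.746, 0.754 and 0.478 at E16.5, and 0.558, 0.803 and 1.07 at E18.5. After birth Nap1l5 measured, in CPM, 1.98, 1.16 and 1.54 at P1, 0.497, 0.427 and 0.604 at 1W, 1.11, 0.295 and 0.987 at 2W, 0.83, 0.639 and 0.504 at 4W, and 0.879, 0.567 and 0.598 at 8W. Its rise over birth (0.93 ± 0.36, adjusted p = 0.041) rested on low counts. It was lost without E18.5 replicate 1, E18.5 replicate 2, P1 replicate 1, P1 replicate 3 or 1W replicate 1 (adjusted p = 0.16, 0.099, 0.18, 0.077 and 0.05) and with library size alone or no filter (adjusted p = 0.076 and 0.069). To 8W it fell (log2 change -1.20 ± 0.38, adjusted p = 0.0066).

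The likeness of 2 members was measured as Pearson's r of their mean log2 CPM over the 10 ages, as a description, since all points share their libraries and scaling. Over the 528 pairs the median r was 0.81, and 271 pairs were over 0.8. Pairs of genes outside the list were not measured, so the likeness of members does not set them apart. The 34 pairs within a locus had a median of 0.84. Peg3 and Plagl1, on different chromosomes, were the most alike (0.996), followed by Usp29 and Zdbf2 (0.994) and H19 and Plagl1 (0.992). Snrpn, Gnas and Peg13 were each negative to 29 of the other 32 members, down to -0.99 for Peg13 and Ndn. Impact (median r 0.023) and Nap1l5 (-0.0042) followed neither course.

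By parental copy, 9 of the 12 maternally expressed members and 18 of the 21 paternally expressed ones fell from P1 to 8W, with medians of -1.95 and -2.38. The 2 maternally expressed members not called there were Phlda2, with no count at either age, and Slc22a18, at means of 0.300 and 0.214 CPM. Over gestation 9 of 12 and 14 of 21 fell (30.4% of all genes), and over birth 8 of 12 and 8 of 21 (19% of all genes). Gnas, the only member assigned to the maternal copy that rose from P1 to 8W, is expressed from both chromosomes in most tissues. The difference between the parental groups was not tested. A list of 44 other imprinted genes, 38 of which passed the filter, gave 11 that rose and 17 that fell from P1 to 8W, where 31.8% and 35.1% of all genes did, with medians of -0.37 and -0.10. Its members with the largest changes were the antisense RNA Nespas, the carboxypeptidase gene Cpa4 and the growth factor gene Igf2. Igf2 fell from 1066 ± 60.2 CPM at P1 to 40.8 ± 2.23 CPM at 8W (-4.71 ± 0.12, adjusted p = 3.7e-25), Nespas from 3.03 ± 1.00 to 0.0126 ± 0.0218 CPM, and Cpa4 from 0.431 ± 0.153 CPM to no count.

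Of 12 genes listed as keepers of imprints, not all of which act on DNA methylation, 9 passed the filter. Between P1 and 8W 5 of them fell and 2 rose, with a median of -0.25 (35.1% and 31.8% of all genes). Over gestation 5 fell and 0 rose (30.4% and 32.9%), and over birth 6 fell and 1 rose (19% and 19.8%). Zfp57, a zinc finger protein that guards imprinted methylation in the early embryo, fell from 5.58 ± 0.405 CPM at P1 to 0.555 ± 0.183 CPM at 8W (-3.31 ± 0.21, adjusted p = 4.3e-15). Uhrf1, which brings the maintenance methyltransferase to newly copied DNA, fell from 20.3 ± 7.46 to 3.06 ± 0.665 CPM (-2.72 ± 0.48, adjusted p = 4.1e-05), and Trim28, the corepressor that Zfp57 recruits, from 150.7 ± 7.35 to 105.5 ± 3.75 CPM (-0.51 ± 0.086, adjusted p = 3.8e-06). The course of Uhrf1 was not a steady fall, as P1 was a dip. Its level was 98.5 ± 9.84 CPM at E18.5, 61.8 ± 6.81 CPM at 1W and 31.8 ± 26.9 CPM at 2W.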

How the data were processed

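The authors deposited expected counts per gene, in 1 table of 48820 genes for all 30 heart libraries. Per the submitters' processing notes the tools included STAR 2.5.3a and fastp 0.18.0, with mm10 and GRCm38 as builds and no role stated. No source used here gives the counter, its annotation or how strand was handled, so genes that share exon bases are uncertain: 15 members do, 13 of them with a gene on the other strand. Of the values, 6.94% were not whole (tolerance 1e-06) and all were rounded.

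Gene identifiers were matched without their version to GENCODE M21 (GRCm38), which gave all 33 members their coordinates and exon length (25 with the same version). Sequences came from RefSeq tables of GRCm38.p6. No paralog check was made.

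Tests ran in edgeR 4.0.16 (R 4.3.3): filterByExpr, TMM factors, 1 quasi-likelihood fit of 10 age means with robust dispersions and 20 residual degrees of freedom, and Benjamini-Hochberg adjustment over 19280 genes. The fit was tested on simulated data. Library sizes leave counting error small for all but the members at a few counts, for which exact 95% intervals or a floor of 3 counts over a group are given. Ratios of neighbours were tested in Python 3.11.15 by permuting age over libraries. Other scalings, filters, DESeq2 1.42.0, a replicate block and leaving out each library were tried.

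Every member is described. Values of all libraries are given for the member with the highest mean level in each locus, for those called over birth and for those that rose from P1 to 8W; the other lists are given by counts, with at most 3 genes named. Members and lists were chosen with earlier results of these data known.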

Additional observations from a re-analysis of the deposited data

How the results depend on the processing

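Counts of members called in the 3 main comparisons stayed within 1.5 times under other scalings, filters, DESeq2, the replicate block and fits of the 6 libraries compared, with 1 exception: with library size alone 2 members rose over birth in place of 4. From P1 to 8W, 26 to 28 fell and 3 or 4 rose. Gnas reversed with library size alone (-0.40), a scaling that moved the median of all genes by -0.77. Leaving out each library gave 4 to 6 rising and 21 to 24 falling over gestation, 3 to 4 rising and 14 to 18 falling over birth, and 32 to 33 differing across ages. Peak ages moved with library size alone, to 17 members at E10.5, 4 at E14.5 and 1 each at E16.5, 2W and 8W. The stricter filter left 31 that differed across ages. From E12.5 to E14.5, 6 to 12 members were called (10 in all libraries), the 6 without E14.5 replicate 2. The cause was not tested.

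Of 135 pairs of same-numbered libraries of different ages 7 deviated together with a correlation over 0.1, with a range from -0.102 to 0.124. Of the 30 libraries 17 were closest to one of their own number, which 9 of the 27 libraries of other ages carry, a hint from the data only. With a replicate block 33 members differed across ages, 5 rose and 23 fell over gestation, 4 and 17 over birth and 4 and 27 from P1 to 8W, the added call among these being Ndn (-0.32, adjusted p = 0.041). Depth limits Phlda2, Slc22a18, Begain, Magel2, Nap1l5 and, from 2W on, Dlk1.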
